A study of Mus musculus with 2 samples.

Results

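Mir183, Mir96 and Mir182 are 3 microRNA (miRNA) genes that lie side by side on mouse chromosome 6. They were chosen by gene symbol in GENCODE M21, and all 3 were found among the 2202 miRNA genes of the deposited tables. The tables describe small RNA from the hippocampus of wild-type male C57BL/6 mice (strain B6NCrl) at 6 months of age, in 2 libraries of a single group, numbered 2 and 1 in the labels and called biological replicates there. No treatment, allele or control group is given, and although the labels speak of a layer of the hippocampus, they do not say which. The donor identifier is the same for both, and nothing says that they came from separate animals, so their differences may be technical. The description of the tissue calls it male, while the field for sex reads as not collected.

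The 3 miRNAs are known to be made from a shared primary transcript and are best known from sensory cells, such as photoreceptors of the retina and hair cells of the inner ear. A change in the seed of miR-96, the stretch near the 5′ end that pairs with target RNAs, causes progressive hearing loss in mice. In the mouse hippocampus the cluster has been linked to memory formation through the phosphatase PP1. These points are background and were not measured here.

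In the direction of transcription, on the minus strand of mm10, the order was Mir183 (ENSMUSG00000065619.2, chromosome 6, 30169668 to 30169737), Mir96 (ENSMUSG00000065586.1, 30169446 to 30169551) and Mir182 (ENSMUSG00000076361.1, 30165918 to 30165992). Between the hairpins of Mir183 and Mir96 lay 116 bases, and between those of Mir96 and Mir182 lay 3453 bases, so that the whole cluster spanned 3820 bases. No other annotated gene overlapped it. The next gene upstream was Rncr4, a long noncoding RNA known from maturing photoreceptors, on the opposite strand and 3155 bases away. On the other side the next gene was Nrf1, which encodes a transcription factor of nuclear genes for mitochondrial proteins, on the opposite strand and 12459 bases away. The tables hold miRNA genes only, so neither neighbour was measured.

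A count in the tables stands for a whole hairpin, and does not say which of its arms the read came from. The hairpins are shown from RefSeq (GRCm38.p6, the assembly also called mm10) with the 5p arm, the arm known as the more abundant product of each, in capitals.
Mir183: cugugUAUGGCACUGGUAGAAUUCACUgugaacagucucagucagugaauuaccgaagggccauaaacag
Mir96: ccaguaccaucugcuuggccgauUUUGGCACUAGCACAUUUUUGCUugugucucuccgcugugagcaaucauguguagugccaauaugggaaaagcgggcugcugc
Mir182: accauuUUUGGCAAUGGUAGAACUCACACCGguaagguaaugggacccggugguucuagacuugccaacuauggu

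The 5p arms are shown once more with the seed, bases 2 to 8 counted from the 5′ end, in capitals, because each member has a seed of its own. The last sequence belongs to another locus and shares its seed with miR-96-5p.
miR-183-5p: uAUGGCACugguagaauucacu
miR-96-5p: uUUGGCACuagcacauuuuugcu
miR-182-5p: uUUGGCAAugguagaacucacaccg
miR-1271-5p: cUUGGCACcugguaagcacuca

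The seeds of miR-96-5p and miR-182-5p differed by 1 substitution, C8A, and those of miR-96-5p and miR-183-5p by 1 substitution, U2A. Between miR-183-5p and miR-182-5p the seeds differed by 2 substitutions, A2U and C8A. Over the whole arm, seed included and aligned from the 5′ end, miR-183-5p and miR-182-5p had the same base at 18 of 22 positions, whereas miR-96-5p matched miR-183-5p at 13 of 22 and miR-182-5p at 12 of 23. The longest run of bases that miR-183-5p shared with miR-182-5p was UGGUAGAA, 8 bases long.

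Among the 1738 mature miRNAs of the RefSeq table, no arm of another gene had the seed of miR-183-5p or miR-182-5p. The seed of miR-96-5p stood in 1 other, miR-1271-5p, whose gene Gm24195 had 0 counts in both libraries. No member shared a stretch of 20 bases with a hairpin elsewhere in the tables, and no transcript of another M21 gene held any of the 5p arms on either strand. Of the 2202 hairpins, 1087 did share such a stretch with another. Copies outside annotated transcripts were not searched.

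The libraries held 12627039 reads (replicate 2) and 11106392 reads (replicate 1). Of these, 5041568 and 4247092 were counted on miRNA genes, 39.9% and 38.2%, and reads that aligned to more than 1 place, 45.7% and 43.8%, were in no gene's count. Each level is in CPM, the share of all reads counted on miRNA genes in that library, with 1000000 as the whole. They are not divided by hairpin length, since a read of this assay stands for a mature miRNA. A count of 0 allows up to 3 counts, which is 0.595 CPM (replicate 2) or 0.706 CPM (replicate 1). The labels name no molecular identifiers, so intervals cover counting error only.

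Mir183 led the cluster in both libraries. It had 1651 counts in replicate 2 and 463 in replicate 1, which is 327 CPM (exact 95% Poisson interval 312 to 344) and 109 CPM (99.3 to 119). Its mean level was 218 ± 154 CPM (SD, n = 2). Among the 2202 genes it ranked 143rd in replicate 2 and 192nd in replicate 1, where 740 and 714 genes had any count and 319 and 313 reached 10 CPM.

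Mir182, the last gene of the cluster, came second. It had 489 counts in replicate 2 and 119 in replicate 1, or 97.0 CPM (88.6 to 106) and 28.02 CPM (23.2 to 33.5). The mean was 62.5 ± 48.8 CPM (SD, n = 2), and its ranks were 198 and 253. Mir183 and Mir182 both stood above 10 CPM in each library.

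Mir96, which lies between them, was close to the limit of counting. It had 12 counts in replicate 2 and 7 in replicate 1, or 2.38 CPM (1.23 to 4.16) and 1.65 CPM (0.663 to 3.40), with a mean of 2.01 ± 0.518 CPM (SD, n = 2). Its 2 intervals overlap. Together the members held 2152 counts in replicate 2 and 589 in replicate 1, or 427 and 139 CPM, which is 0.0427% and 0.0139% of the counted reads.

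No count of any member stood on the opposite strand, in either library. The column counted without regard to strand gave each member the same count as the column for its own strand.

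**Figure D1:**
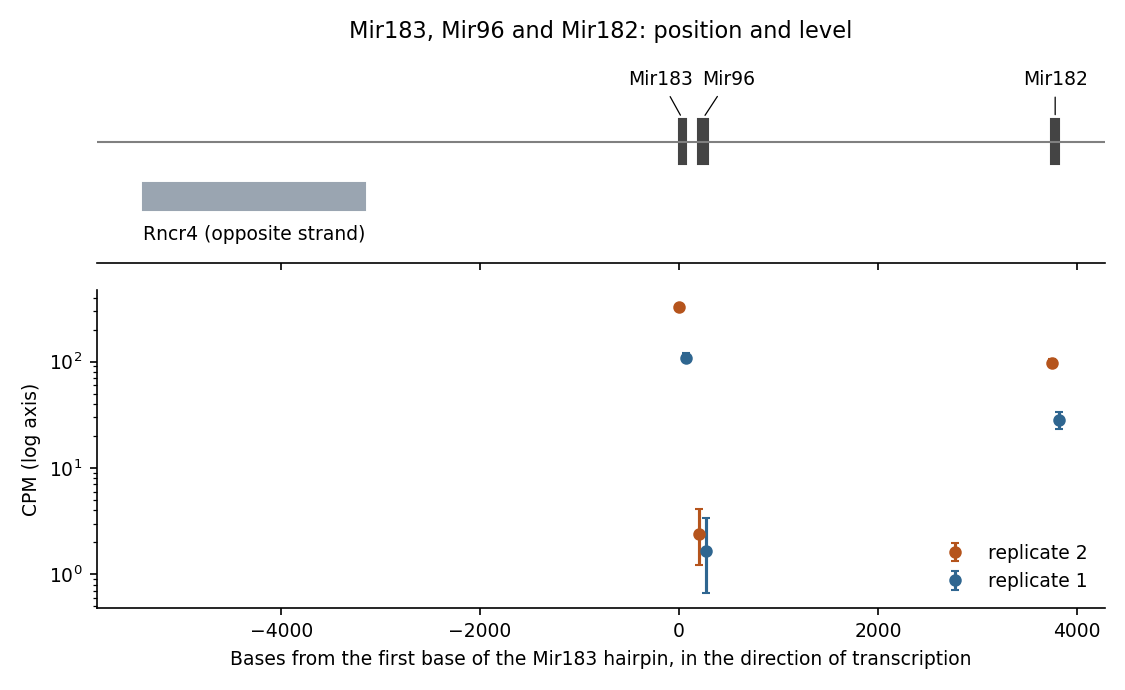
Position of the 3 hairpins and of Rncr4 (top, in bases from the first base of the Mir183 hairpin, in the direction of transcription) and level of each gene (bottom, CPM on a log axis) in replicate 2 and replicate 1, drawn a little to the left and right of each gene's centre. Bars are exact 95% Poisson intervals of the count. Mir96, 116 bases from Mir183, stands at 2.38 and 1.65 CPM, against 327 and 109 CPM for Mir183.

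The order Mir183, Mir182, Mir96 was the same in both libraries, and within each library the intervals of neighbours in that order did not overlap. Across libraries the order of the first pair is less clear. Mir182 in replicate 2, at 97.0 CPM, came close to Mir183 in replicate 1, at 109 CPM, and these intervals overlap. The order is one of counted reads, and how efficiently each sequence was captured was not measured here.

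The makeup of the cluster was compared next, because a ratio of members within a library does not depend on how the libraries are scaled. Mir183 made up 76.7% of the cluster's counts in replicate 2 (exact 95% binomial interval 74.9 to 78.5%) and 78.6% in replicate 1 (75.1 to 81.9%). Mir182 made up 22.7% (20.97 to 24.6%) and 20.2% (17.0 to 23.7%). Mir96 contributed 0.558% (0.288 to 0.972%) and 1.19% (0.479 to 2.43%). For each gene the intervals of the libraries overlap.

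Per 100 counts of Mir183 there were 29.6 counts of Mir182 in replicate 2 (26.7 to 32.8) and 25.7 in replicate 1 (20.8 to 31.5). The ratio in replicate 2 was 1.15 times that in replicate 1, with an exact 95% interval of 0.916 to 1.46 that includes 1.

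Mir183 exceeded Mir96 by 138-fold in replicate 2 (78.5 to 267) and by 66.1-fold in replicate 1 (31.8 to 165). Mir182 exceeded Mir96 by 40.8-fold in replicate 2 (23.1 to 79.4) and by 17.0-fold in replicate 1 (7.9995 to 43.2). The ratio of Mir96 to Mir183 in replicate 2 was 0.481 times that in replicate 1 (0.173 to 1.45), and the ratio of Mir96 to Mir182 was 0.418 times (0.148 to 1.28). Both intervals include 1 and are wide, so a difference in the part of Mir96 was not detectable at 12 and 7 counts.

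**Figure D2:**
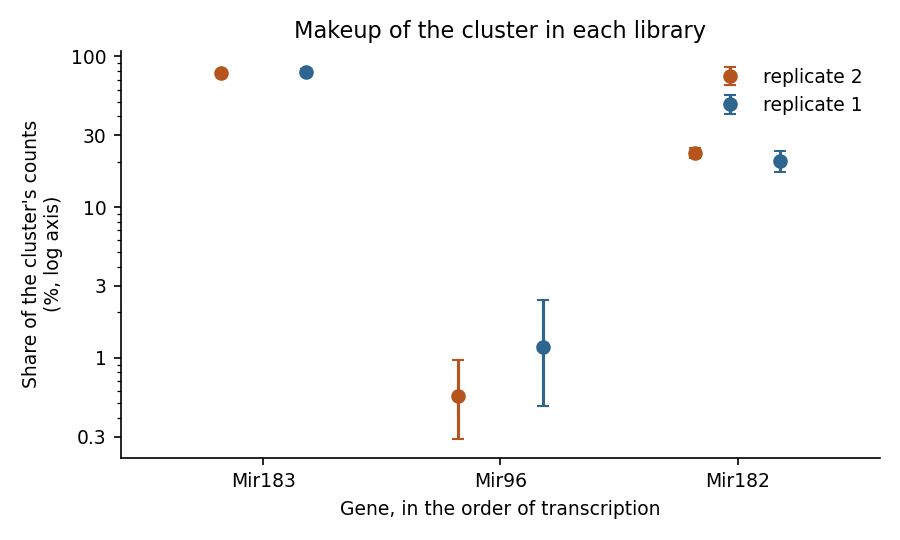
Share of the cluster's counts held by each gene (percent, log axis) in replicate 2 and replicate 1, with exact 95% binomial intervals. Mir183 holds 76.7 and 78.6%, Mir182 holds 22.7 and 20.2%, and Mir96 holds 0.558 and 1.19%.

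The cluster's level, in contrast to its makeup, differed between the libraries. Mir183 was 3.004 times as high in replicate 2 as in replicate 1, at 327 against 109 CPM (log2 ratio 1.59, exact 95% interval 1.44 to 1.74). Mir182 was 3.46 times as high, at 97.0 against 28.02 CPM (log2 ratio 1.79, 1.4997 to 2.09). Mir96, at 2.38 and 1.65 CPM, had a log2 ratio of 0.49 whose interval ran from −0.93 to 2.11 and so includes 0 as well as the ratios of its neighbours. Since these are pieces of bulk tissue, fewer cells that express the cluster and less of it per cell cannot be told apart.

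Each ratio was put to an exact binomial test, two-sided, on the reads of both libraries, and p-values were adjusted by Benjamini-Hochberg over the 522 genes whose counts summed to 10 or more. Of the 3 members, 2 passed as higher in replicate 2, Mir183 (adjusted p = 6.09e-114, exact binomial test) and Mir182 (adjusted p = 1.17e-40, exact binomial test), and Mir96 did not pass (adjusted p = 0.614, exact binomial test). The test compares the reads of 2 libraries and no conditions. Of all tested genes it called 51.0% different in either direction and 28.2% higher in replicate 2. With testing limited to the 311 genes whose counts summed to 100 or more, Mir183 and Mir182 among them, it called 77.2%. Passing it is thus common at this depth and says little about the members.

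The size of the ratios was therefore set beside that of other genes. Over the 522 tested genes the median log2 ratio was 0.09, and the middle 50% of genes lay between −0.32 and 0.54. Mir182 had the 18th highest ratio and Mir183 the 25th. Genes of similar level, within 2-fold of the mean CPM, were set beside each. Of 61 genes similar to Mir183, 2 had a higher log2 ratio, and the range was −1.09 to 1.89. Of 67 genes similar to Mir182, 1 had a higher ratio and 2 had one at least as far from 0 on the lower side. Of 124 genes similar to Mir96, 44 had a higher ratio. These places are a description, and the members were chosen with such values known.

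**Figure D3:**
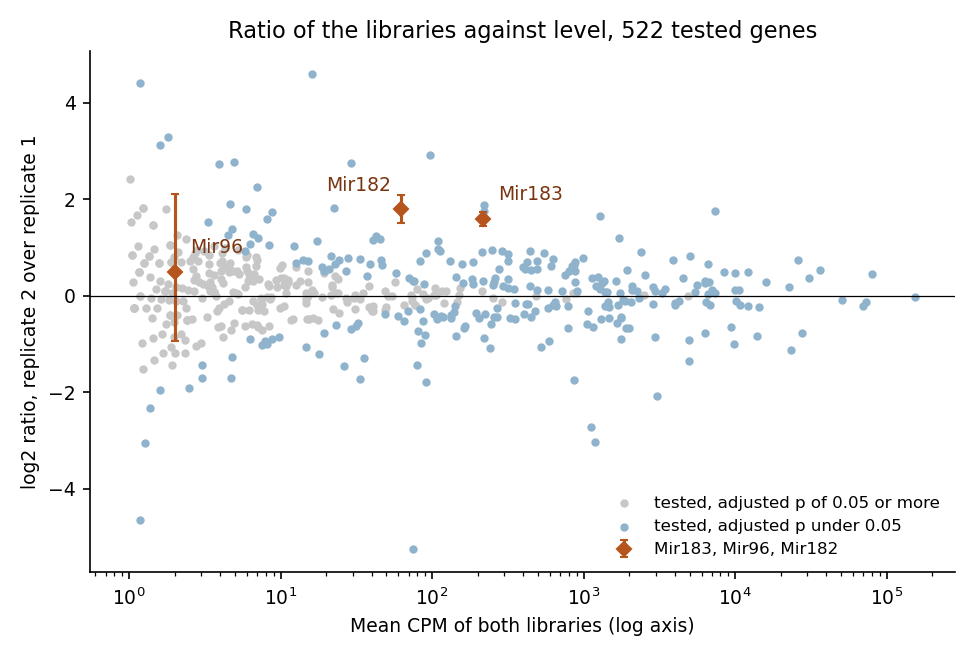
Log2 ratio of replicate 2 over replicate 1 against mean level (CPM, log axis) for the 522 tested genes, coloured by whether they passed the exact binomial test. Mir183 (1.59) and Mir182 (1.79) lie near the upper edge of genes of their level, and the interval of Mir96 spans 0; bars on the members are exact 95% intervals.

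Genes that share a primary transcript often, but not always, keep their levels in step. The members were therefore set beside other neighbouring miRNA genes on the same strand and at most 10 kb apart. Neighbours were sought among the tested genes, so untested genes could lie between them. There were 112 such pairs of tested genes outside the cluster. Their log2 ratios differed by a median of 0.43, with the middle 50% of pairs between 0.20 and 0.97, and in 64 of the 112 both genes had ratios of the same sign. Mir182 and Mir183, with Mir96 between them, differed by 0.20, and 29 of the 112 pairs were closer. Mir96 differed from Mir183 by 1.10 and from Mir182 by 1.30, values that rest on its 12 and 7 counts.

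The levels of Mir96 and Mir183 lay further apart than those of most such pairs. By mean CPM the gap was 108-fold, against a median of 8.27-fold over the 112 pairs, of which 8 had a wider gap. The gap between Mir96 and Mir182 was 31.0-fold, and 22 pairs exceeded it. Between Mir182 and Mir183 it was 3.49-fold, and 78 pairs exceeded it. Many genes among these pairs share sequence with hairpins elsewhere, and their counts lack the reads that aligned to several places. Without them 77 pairs remained, of which 2 had a wider gap than Mir96 and Mir183, an alternative chosen after the data were seen.

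**Figure D4:**
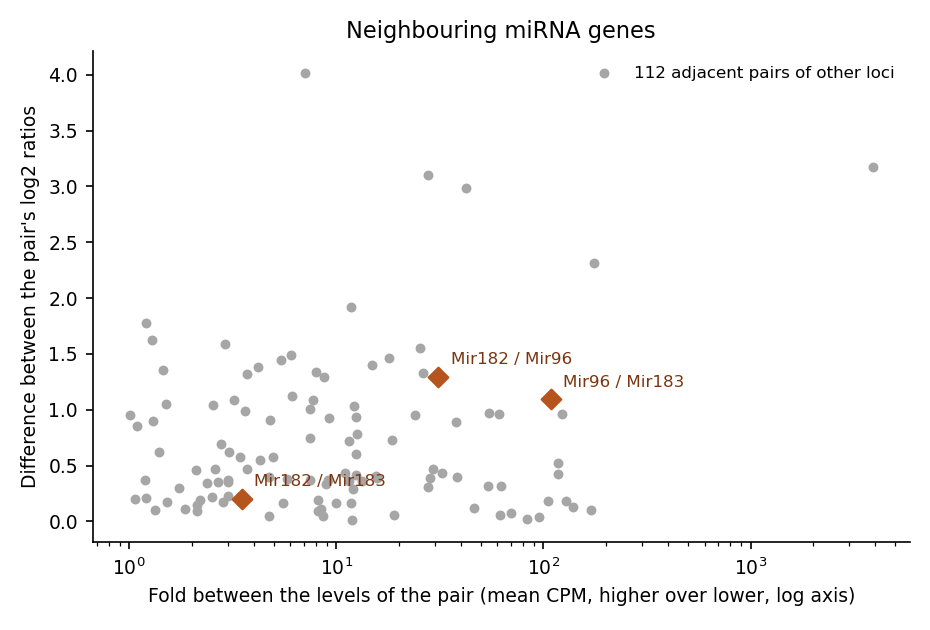
Neighbouring tested miRNA genes at most 10 kb apart on the same strand (grey, 112 pairs) and the 3 pairs within the cluster (diamonds). Untested genes could lie between the genes of a pair. The horizontal axis gives the fold between the mean levels of the pair (log axis) and the vertical axis the difference between their log2 ratios of replicate 2 over replicate 1. Mir182 and Mir183 lie low, at a difference of 0.20, and Mir96 and Mir183 lie far right, at 108-fold.

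The next miRNA gene beyond Mir183 moved the other way. Mir335, which lies in the imprinted gene Mest, 571561 bases from the cluster, had 521 counts in replicate 2 and 781 in replicate 1, or 103 and 184 CPM (log2 ratio −0.83, −0.99 to −0.67; adjusted p = 3.35e-24, exact binomial test). On the other side the next miRNA gene, Gm23049, had 0 counts in both libraries.

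Genes with the most similar pattern were sought as those with the smallest distance on the log2 CPM scale over both libraries, among 448 other genes that averaged 10 counts or more. With 2 libraries this finds genes of like level and like ratio and no more. Nearest to Mir183 was Mir296, an imprinted miRNA gene on chromosome 2, with 338 CPM (replicate 2) and 101 CPM (replicate 1) and a distance of 0.12. Mir200b, an miRNA of epithelial cells, followed at 345 and 93.0 CPM (distance 0.24). Mir1306, in the gene of the miRNA-processing protein Dgcr8, had 279 and 149.985 CPM (distance 0.51), and Mir669c, of the repeated cluster in Sfmbt2, had 230.1 and 142 CPM (distance 0.63). Mir669c shares sequence with other hairpins, so its count is uncertain.

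The genes nearest to Mir182 were Mir8114, inside the glutamine synthetase gene Glul, with 62.7 CPM (replicate 2) and 27.8 CPM (replicate 1) and a distance of 0.63, and mmu-mir-3535, inside the nucleolin gene Ncl, at 59.7 and 25.4 CPM (distance 0.71). On the same strand mmu-mir-3535 also overlaps Gm24148, a small nucleolar RNA gene, and which of them its reads came from was not tested. Mir6944, in the drebrin gene Dbn1, had 57.9 and 34.6 CPM (distance 0.80), and Mir193a had 55.9 and 25.2 CPM (distance 0.81). All 4 had a lower ratio than Mir182.

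Last, miRNA markers of the tissue and of its surroundings were measured in the same libraries. Neuron-enriched genes reached a sum of 188098 CPM (replicate 2) and 209761 CPM (replicate 1), and none of the 18 was at 0 in both libraries. Some were close to the limit of counting. In replicates 2 and 1, Mir124a-1 had 8 and 6 counts, Mir124a-3 had 5 and 5, Mir124a-2 had 0 and 2, and Mir9-2 had 8 and 10. Reads that aligned to more than 1 place were in no gene's count. Genes with several numbered copies, such as these, can lose reads that way. Their low counts therefore do not show that the mature miRNAs were scarce, and the sums of the lists may be incomplete. Mir139 (153300 and 156599 CPM), the activity-regulated Mir132 (14605 and 32072 CPM), Mir128-1 (6155 and 6711 CPM) and Mir138-1 (3336 and 3215 CPM) led the list. Mir139 alone made up most of each sum. Of 17 tested, 5 were higher and 7 lower in replicate 2 by the exact binomial test, and the median log2 ratio was −0.03. Over all 522 tested genes 28.2% were called higher and 22.8% lower in replicate 2, with a median log2 ratio of 0.09, and the counts of the lists that follow stand beside the same shares. The neuron sum was lower in replicate 2, where the cluster was higher. Of the 18 genes, Mir132 differed most in CPM, at 14605 (replicate 2) and 32072 (replicate 1). Among the 5 that were higher was Mir9-3, with 257 counts in replicate 2 and 32 in replicate 1.

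Markers of epithelium, which in the mouse include the miR-200 family, moved unevenly. The list of 7 genes reached 707 CPM (replicate 2) and 375 CPM (replicate 1), with 3 genes higher, 1 lower and 3 not passing, and none at 0 in both. Mir200b (345 and 93.0 CPM) and Mir200c (151 and 68.3 CPM) were higher in replicate 2. Mir429, a neighbour of Mir200b, had 160.3 and 143 CPM and did not pass, and Mir203, an miRNA of skin, was lower at 14.1 and 38.6 CPM. The list's median log2 ratio was 0.16.

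Hindbrain and spinal cord genes, which lie in the Hox clusters, reached 44.6 CPM (replicate 2) and 20.7 CPM (replicate 1). All 3 tested were higher in replicate 2, as were 28.2% of all tested genes, with a median log2 ratio of 1.03. They were Mir10a (19.0 and 11.5 CPM), Mir10b (16.5 and 8.01 CPM) and Mir615 (44 and 5 counts). Mir196b and Mir196a-2 had 1 count each in replicate 2 and 0 in replicate 1, and Mir196a-1 had 0 in both.

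The choroid plexus and ependyma list went the other way, with 3149 CPM (replicate 2) and 9225 CPM (replicate 1), with 1 of 5 tested genes higher, 3 lower (22.8% of all tested genes were called lower) and a median log2 ratio of −1.35. Mir204 (2780 and 7102 CPM), Mir34c (296 and 1959 CPM) and Mir34b (40.5 and 141 CPM) were lower in replicate 2, Mir449a (27.97 and 17.7 CPM) was higher, and Mir449b was at 0 in both. The pituitary and hypothalamus list summed to 2055 and 2703 CPM in replicates 2 and 1, with Mir7b (1501 and 2043 CPM) and Mir375 (378 and 515 CPM) lower, Mir7-2 (175 and 145 CPM) higher, and a median log2 ratio of −0.44.

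Oligodendrocyte genes reached 8786 CPM (replicate 2) and 5817 CPM (replicate 1), with a median log2 ratio of 0.10 over 3 tested genes. Mir219a-2 (6444 and 3630 CPM) and Mir338 (2333 and 2175 CPM) were higher in replicate 2, Mir219a-1 (9.72 and 11.3 CPM) did not pass, and Mir219b was at 0 in both. Erythroid genes, a sign of blood, summed to 25.4 and 20.0 CPM in replicates 2 and 1, and none of the 3 tested passed (median log2 ratio 0.38), among them Mir486 at 15.3 and 10.1 CPM and Mir451a at 6.94 and 8.71 CPM. Mir3107, which overlaps Mir486 on the other strand, had 8 and 5 counts, and Mir144 had 8 and 0 counts. The part of any of these lists in the difference of Mir183 and Mir182 between the libraries was not tested, and with 2 libraries they cannot be told apart from the adapter-trimming protocol, of which the labels cite a different version for each library.

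**Figure D5:**
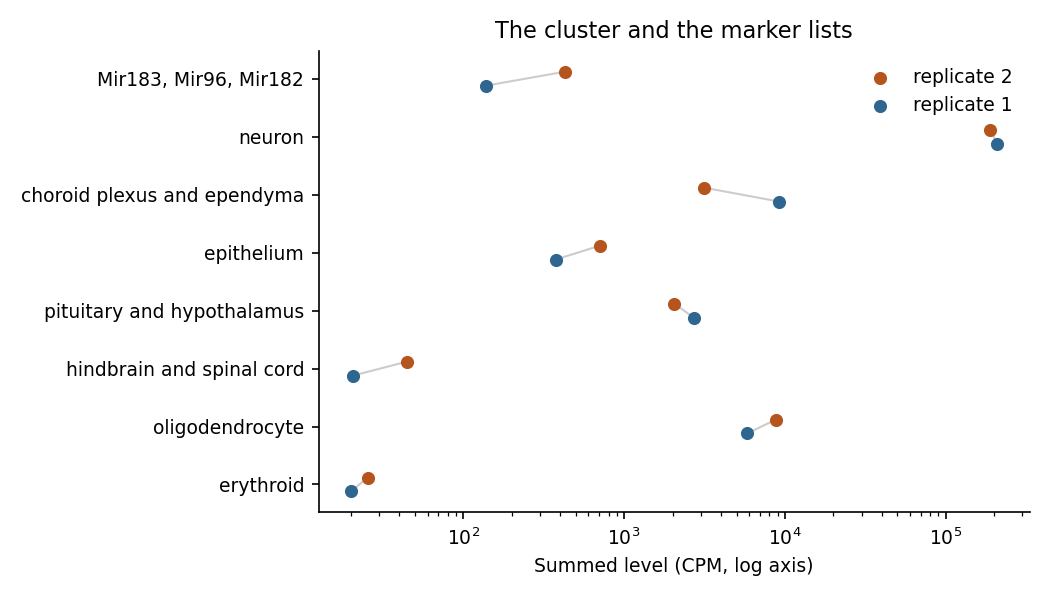
Summed level (CPM, log axis) of Mir183, Mir96 and Mir182 and of the 7 marker lists in replicate 2 (upper point of each row) and replicate 1 (lower point). The cluster is at 427 and 139 CPM, and the choroid plexus and ependyma list is lower in replicate 2.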

How the data were processed

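The authors deposited 1 table of raw read counts per library, with 3 count columns and 4 summary rows. Per the file headers, reads were placed on mm10 with GENCODE M21; aligner and counter are not stated there. The column for the gene's own strand was used without the summary rows. A count model such as that of edgeR needs replicates in each arm, which 1 library against 1 does not give, so the exact binomial test, two-sided, was used with a threshold of 0.05 on the Benjamini-Hochberg adjusted p. For log2 ratios 0.5 was added to each count. The test was checked on simulated counts that held counting error only, so that check does not cover any further spread between libraries. Sequences come from RefSeq, which held all 3 members.

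The members and the 7 marker lists were chosen with earlier results of these data known. Named genes were the members, genes that share a 5p seed, the flanking genes, the 4 genes nearest to Mir183 and to Mir182, and up to 4 genes per list by mean CPM. Mir335, Gm23049, Mir449b, Mir196a-1 and Mir196a-2 were named beyond this rule after their values were seen. The same holds for Mir124a-1, Mir124a-2, Mir124a-3, Mir9-2 and Mir9-3 of the neuron list. The listed name Mir486b matched no gene. Alternatives were TMM (edgeR 4.0.16), DESeq2 1.42.0 size factors, other denominators, minimums, count columns and neighbour distances, and each library alone. Python 3.11.15, scipy 1.17.1 and R 4.3.3 were used.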

Additional observations from a re-analysis of the deposited data

How the results depend on the processing

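Of 61 alternative values, 60 kept their direction and their side of the threshold or moved by less than the spread between the libraries. That outcome was fixed in advance for values from 1 library alone, since the spread was computed from the same 2 libraries. It was also fixed for ratios within the cluster in the column without regard to strand, where each member's count was the same. Other minimums of counts could not change a member's log2 ratio, only its adjusted p. Adding 2 counts in place of 0.5 could change the log2 ratio but not the p-value. The exception was Mir96 when scaled to all reads of the library, at 0.790 CPM against 2.01 CPM, where the larger denominator lowers each level by construction. Mir183 (86.2 against 218 CPM) and Mir182 (24.7 against 62.5 CPM) fell as well, but by less than their SD between the libraries. Under TMM and under DESeq2 size factors the log2 ratio of Mir183 was 1.51 in both cases, and that of Mir182 was 1.71 in both. The number of genes called lay between 240 and 267 over the alternatives, against 266, but the number tested differed. It was 267 of 799 genes (33.4%) with at least 1 count and 240 of 311 (77.2%) with a sum of at least 100. The main setting called 266 of 522 (51.0%). The split of 147 higher and 119 lower in replicate 2 became 123 higher and 135 lower under TMM, and 122 higher and 135 lower under DESeq2 size factors. The level of Mir183 was 327 CPM without replicate 1 and 109 CPM without replicate 2. Leaving out a library ends the comparison between libraries, so no test could be repeated that way. No paired analysis was possible because there is only 1 group. Depth limits Mir96, which had 12 and 7 counts.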
